A study of Mus musculus with 14 samples.

Results

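Khdc1a, Vat1l, Slc14a1, Fgf3, Cd96, Hemgn, Podxl, Grtp1, Ccdc102a and Itm2a are 10 of the 32465 genes measured here, chosen by the size of their fall in Gr1+ cells relative to Kit+Gr1- cells of the FDCPmix line. Of these 32465 entries, 16462 have a gene symbol. Each of the rest is an accession that counts as 1 gene in the shares of all genes. FDCPmix cells are mouse progenitors derived from bone marrow, which need interleukin-3 to grow and can form several blood lineages in culture. The cells came from maintenance cultures in Fisher's medium with horse serum and conditioned medium as the source of interleukin-3. They were stained with antibodies, sorted by flow cytometry and measured on 14 single-colour Agilent arrays. No group carried a transgene, a deletion or an added treatment per the labels, and all groups share this 1 line and culture. There were 3 arrays each of Gr1+ cells, Kit-Gr1- cells, Kit+Gr1-Sca1lo cells and Kit+Gr1-Sca1hi cells, and 2 of the unfractionated culture. Kit is the receptor for stem cell factor, Gr1 an antigen of granulocytes, and Sca1 the surface protein encoded by Ly6a. The series text calls the replicates biological without saying whether they came from separate cultures, so p-values measure the spread between these samples. The question here was whether Kit-Gr1- cells, which had left the Kit+ gate without gaining Gr1, kept the transcripts that were low in Gr1+ cells.

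Blood progenitors carry surface receptors, adhesion molecules and nuclear factors whose genes are turned down at different steps of maturation, and a gene can be lost along 1 lineage while it persists along another. Granulocytic maturation, marked here by Gr1, ends with cells full of granule proteins. Erythroid maturation, by contrast, keeps or raises a set of membrane transporters and nuclear factors that serve the red cell. Among the 10 genes are 4 that encode membrane proteins (Slc14a1, Cd96, Podxl and Itm2a), 1 that encodes a secreted growth factor (Fgf3), 1 for a nuclear protein of blood cells (Hemgn), and 4 for other intracellular proteins (Khdc1a, Vat1l, Grtp1 and Ccdc102a).

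Levels are given as the log2 of the scanner's processed signal minus the 75th percentile of its array, so that 0 is the 75th percentile. A level of 1 gene is compared only between samples, since different probes are not on 1 scale. Differences are log2 values from limma with a standard error after ± unless SD is written. Genes count as called where limma's p, after Benjamini-Hochberg adjustment over all genes, was under 0.05 and the groups differed 2-fold or more. Between 79.5% and 99.5% of spots were well above background on each array. The 4 arrays of Sca1hi replicate 3, Sca1lo replicate 3, Gr1+ replicate 3 and unfractionated replicate 1 stood apart, with signals compressed to an interquartile range of 1.78 to 3.41 on the log2 scale against 4.17 to 4.92 on the others. The 2 unfractionated arrays correlated at only 0.509 over all genes, while arrays within a sorted group correlated at 0.839 to 0.989. Values without the 4 compressed arrays stand beside the results. With 2 or 3 arrays a group, their number limits the precision.

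In Gr1+ cells all 10 genes were lower than in Kit+Gr1- cells, by 2.52 to 3.90 on the log2 scale (5.74-fold to 15.0-fold), and no Gr1+ array overlapped a Kit+Gr1- array for any of them. These values chose the genes and are given as a description. Over all genes 0.625% were called lower in Gr1+ cells, which is the background to these 10 and carries no weight for them. In Kit-Gr1- cells none of the 10 fell to the level of Gr1+ cells. Every Kit-Gr1- array lay above every Gr1+ array for each of the 10 genes, with differences of 2.07 to 4.19 (4.20-fold to 18.2-fold), again a description because the Gr1+ arrays entered the choice. Over all genes 0.564% were called higher in Kit-Gr1- than in Gr1+ cells, and the share with arrays apart was not counted.

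Against Kit+Gr1- cells, 0 of the 10 genes were called in Kit-Gr1- cells, and 0.0678% of all genes were. In this comparison 22 genes were called in all, 0.0554% of genes higher and 0.0123% lower, with 142 called without the 4 compressed arrays and 0 without Kit-Gr1- replicate 1 or without Kit-Gr1- replicate 3. None of the 10 was called in any of these. At an unadjusted p under 0.05 there were 5 of the 10 genes and 658 of the 32465. The 5 became 1 without Kit-Gr1- replicate 1, without Kit-Gr1- replicate 3, against Sca1lo alone, with array medians, with the deposited values or without the trend, and 2 without Sca1hi replicate 3 or without Sca1lo replicate 2. The count was 6 with slide as a block. It stayed 5 with the replicate number as a block, without the unfractionated arrays or without the 4 compressed arrays. The Kit+Gr1- arrays served in choosing the 10, and the Kit-Gr1- arrays did not. The difference was positive for 7 of the 10 and negative for Khdc1a, Vat1l and Ccdc102a. Sca1hi replicate 3 and Sca1lo replicate 3 were compressed arrays, and no Kit-Gr1- array was. Without the 4 compressed arrays Fgf3 turned negative (-0.09). The other positive differences were then smaller, up to 0.90 (Grtp1), and the negative ones larger in size, down to -1.50 (Khdc1a). The median over the 10 was 0.41, and the median over all genes was -0.25. This downward shift of all genes in Kit-Gr1- cells depends on the scaling: it was 0.07 with array medians, 0.00 with quantile normalization, -0.13 with normexp and -0.48 with the deposited values, where the medians over the 10 genes (9 under normexp) were 0.65, 0.31, 0.43 and 0.27. The Gr1+ differences that picked the genes give no independent mark to hold these values against. A missed call does not show equal levels, and the 95% intervals reached from -2.33 (Khdc1a) to 1.83 (Grtp1). The interval included 0 for 5 genes, lay above 0 for Cd96, Podxl and Grtp1, and lay below 0 for Khdc1a and Ccdc102a. Each array measured RNA of a whole sorted population, so fewer cells that carry a transcript and less of it per cell cannot be told apart.

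**Figure D1:**
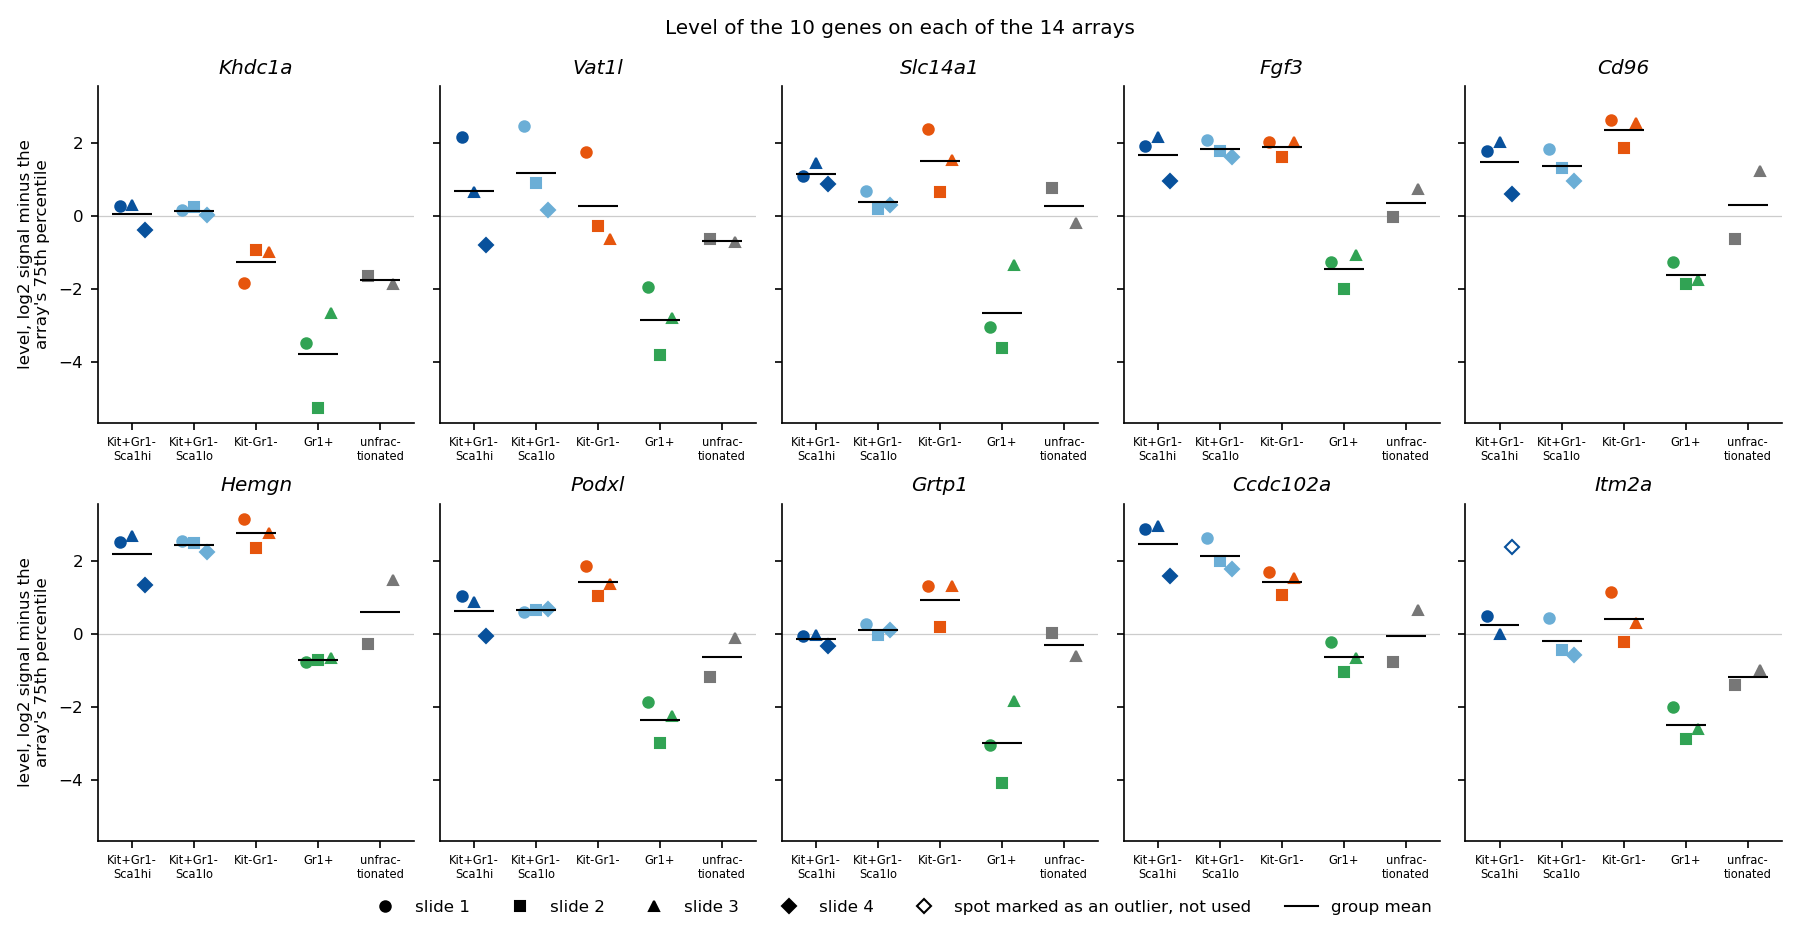
Level of each of the 10 genes (log2 processed signal minus the array's 75th percentile, vertical axis) on every array, by group, with the group mean as a line and the slide as the symbol. The Gr1+ arrays lie below all Kit+Gr1- and Kit-Gr1- arrays in every panel, and the open symbol for Itm2a is the Sca1hi replicate 3 spot, at 2.39, that the scanner software marked as an outlier.

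The name of this set, progenitor genes switched off in Gr1+ cells, goes further than the values show. All 10 genes were well above background on all 3 Gr1+ arrays by the scanner's own test. That test is lenient, since between 86.8% and 95.9% of spots passed it on the Gr1+ arrays. It cannot show whether a transcript was still present, so the values show lower levels and do not settle absence. The dimmest value was that of Khdc1a on Gr1+ replicate 2, at 23.9 units of processed signal. Of 42 other genes known from stem and progenitor cells, 4 fell in Gr1+ cells, 1 rose and 37 were not called. Over all genes 0.625% were called lower and 1.38% higher. The median of the 42 was -0.29, against -0.04 over all genes. Those that fell were Mycn (-2.50), a MYC family factor, Zfpm1 (-2.28), the GATA1 cofactor FOG1, Myct1 (-2.12) and Sox4 (-1.36). The 1 that rose was Ly6a, the gene of Sca1, higher by 4.15 ± 0.43 (limma adjusted p = 0.000928). Kit itself was 0.29 ± 0.25 higher in Gr1+ cells and was not called, while in Kit-Gr1- cells it fell by 2.21 ± 0.25 (adjusted p = 0.00381). The fraction gated as Kit- without Gr1 was thus low in Kit mRNA, and the Gr1+ fraction was not.

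Slc14a1 encodes the urea channel of the red cell membrane, which carries the Kidd blood group in humans. Its level in the 6 Kit+Gr1- arrays ran from 0.21 through a median of 0.79 to 1.46. The Kit-Gr1- arrays measured 2.39, 0.65 and 1.53, and the Gr1+ arrays -3.04, -3.61 and -1.35. Kit-Gr1- replicate 1 was the highest of all sorted arrays, replicate 3 was just above the Kit+Gr1- range and replicate 2 inside it. The difference of Kit-Gr1- from Kit+Gr1- cells was 0.75 ± 0.47 (95% interval -0.26 to 1.75, limma adjusted p = 0.906). Without the 4 compressed arrays it was 0.65 ± 0.36. Within slides 1, 2 and 3 it was 1.48, 0.44 and 0.07, so slide 1 gave most of it. A second probe of the gene gave 0.76 ± 0.34 for Kit-Gr1- cells and -2.40 ± 0.34 for Gr1+ cells, a smaller fall than the -3.44 of the first.

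Cd96 encodes a receptor of the immunoglobulin family that binds nectin-like proteins and is best known from T and natural killer cells. Its Kit+Gr1- arrays lay between 0.62 and 2.04, with a median of 1.55. In Kit-Gr1- cells it measured 2.63, 1.87 and 2.56, and in Gr1+ cells -1.25, -1.86 and -1.75. Kit-Gr1- replicates 1 and 3 were above every Kit+Gr1- array, and replicate 2 was within their range. The difference between Kit-Gr1- and Kit+Gr1- cells was 0.92 ± 0.42 (95% interval 0.02 to 1.82, adjusted p = 0.906). It was 0.81, 0.56 and 0.51 within slides 1, 2 and 3, and 0.60 ± 0.24 without the compressed arrays. Cd96 was thus on the high side in Kit-Gr1- cells on all 3 slides, without passing the test.

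Podxl encodes podocalyxin, a sialomucin of the CD34 family that coats podocytes, endothelium and early blood cells. On the Kit+Gr1- arrays it ranged from -0.04 to 1.03, with a median of 0.67. The Kit-Gr1- arrays gave 1.85, 1.05 and 1.37, and the Gr1+ arrays -1.85, -3.00 and -2.24. Every Kit-Gr1- array was above every Kit+Gr1- array, though replicate 2 only just. Arrays of 3.33% of all genes were apart in this direction, and Podxl was the only 1 of the 10 whose arrays were. Its difference was 0.79 ± 0.33 (95% interval 0.07 to 1.51, adjusted p = 0.906), and 0.63 ± 0.28 without the compressed arrays. Another, dimmer probe of Podxl gave only 0.15 ± 0.33 for Kit-Gr1- cells and -1.21 ± 0.33 for Gr1+ cells, so the size of both values rests on the probe.

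Itm2a encodes a membrane protein with a BRICHOS domain that is induced during T cell selection and in cartilage. The scanner software marked its spot on Sca1hi replicate 3 as an outlier, and that array was left out of its values, so that the Sca1hi mean rests on 2 arrays. The remaining 5 Kit+Gr1- arrays ran from -0.56 through -0.01 to 0.50. The Kit-Gr1- arrays measured 1.16, -0.22 and 0.29, and the Gr1+ arrays -2.00, -2.89 and -2.59. Kit-Gr1- replicate 1 lay above the Kit+Gr1- range, and replicates 2 and 3 lay inside it. The difference was 0.38 ± 0.36 (95% interval -0.40 to 1.17, adjusted p = 0.906). With the marked spot kept, at a level of 2.39, it was 0.03 ± 0.48, since that spot raises the Kit+Gr1- mean. Without the compressed arrays it was 0.29 ± 0.36.

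Fgf3, the 1 secreted factor of the set, is a fibroblast growth factor known for its part in inner ear formation and as an insertion site of mouse mammary tumour virus. Its 6 Kit+Gr1- arrays lay between 0.95 and 2.17, with a median of 1.85. The Kit-Gr1- arrays measured 2.04, 1.62 and 2.05, and the Gr1+ arrays -1.25, -1.99 and -1.06. All Kit-Gr1- values fell inside the Kit+Gr1- range. The difference of 0.15 ± 0.31 (95% interval -0.52 to 0.81, adjusted p = 0.907) was the smallest of the 10 in size. Slides 1, 2 and 3 taken singly gave 0.04, -0.16 and -0.12, a fit with slide as a block gave -0.06, and leaving out the compressed arrays gave -0.09, so its sign was not settled. In Gr1+ cells the same gene differed by -3.19 ± 0.31 (9.14-fold lower).

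Hemgn encodes hemogen, a nuclear protein of blood progenitors and erythroid cells. It ranged from 1.35 to 2.69 on the Kit+Gr1- arrays, with a median of 2.52, and only Sca1hi replicate 3, a compressed array, was far below the median. The Kit-Gr1- arrays gave 3.15, 2.36 and 2.78. The Gr1+ arrays gave -0.77, -0.71 and -0.64, the tightest set of Gr1+ values among the 10 (SD 0.06, n = 3). Kit-Gr1- replicates 1 and 3 were above all Kit+Gr1- arrays and replicate 2 was inside their range. The difference was 0.45 ± 0.38 (95% interval -0.37 to 1.26, adjusted p = 0.906), and it shrank to 0.19 ± 0.18 without the compressed arrays. Within slides 1, 2 and 3 it was 0.60, -0.15 and 0.09, so its sign differed between slides. A second probe gave 0.46 ± 0.37 and the third, a dim one, -0.55 ± 0.58. The third probe was also nearly flat in Gr1+ cells, at -0.65 ± 0.58.

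Grtp1 encodes a protein with a TBC domain, the fold of proteins that switch off Rab GTPases, and was named for its control by growth hormone. Its Kit+Gr1- arrays were close together, from -0.32 through a median of -0.02 to 0.27. The Kit-Gr1- arrays measured 1.32, 0.20 and 1.31, and the Gr1+ arrays -3.05, -4.09 and -1.83. Kit-Gr1- replicates 1 and 3 were well above the Kit+Gr1- arrays, and replicate 2, on slide 2, was among them. The difference was 0.95 ± 0.41 (95% interval 0.06 to 1.83, adjusted p = 0.906), the highest of the 10. Within slides 1, 2 and 3 it was 1.21, 0.21 and 1.33, and without the compressed arrays it was 0.90 ± 0.32.

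Khdc1a belongs to a family of KH domain proteins studied mostly in oocytes and early embryos. Its Kit+Gr1- arrays lay between -0.38 and 0.31, with a median of 0.21. The Kit-Gr1- arrays measured -1.85, -0.93 and -0.98, and the Gr1+ arrays -3.47, -5.25 and -2.66. It was the only gene of the 10 with all Kit-Gr1- arrays below all Kit+Gr1- arrays, an order that 2.46% of all genes showed. The groups therefore stood in 3 separate steps, with Kit-Gr1- cells 2.57-fold below Kit+Gr1- cells and 5.82-fold above Gr1+ cells. The latter distance, 2.54 on the log2 scale, was 1.71 under normexp and 1.81 without Gr1+ replicate 2, and the fall of -3.90 in Gr1+ cells was -2.91 and -3.17 there. The difference from Kit+Gr1- cells was -1.36 ± 0.45 (95% interval -2.33 to -0.39, limma adjusted p = 0.906). Without the compressed arrays it was -1.50 ± 0.39 (adjusted p = 0.198), and within slides 1, 2 and 3 it was -2.07, -1.18 and -1.29. Khdc1a was thus lower in Kit-Gr1- cells on each slide, without passing the test.

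Ccdc102a encodes a coiled-coil protein. On the Kit+Gr1- arrays its level was 1.59 to 2.96, with a median of 2.31. The Kit-Gr1- arrays gave 1.70, 1.07 and 1.53, and the Gr1+ arrays -0.21, -1.04 and -0.67. Replicates 2 and 3 of Kit-Gr1- cells were below every Kit+Gr1- array, and replicate 1 was inside the range because Sca1hi replicate 3, a compressed array, was low. The difference was -0.88 ± 0.38 (95% interval -1.70 to -0.05, adjusted p = 0.906). It was -1.06, -0.93 and -1.43 within slides 1, 2 and 3, and -1.18 ± 0.24 without the compressed arrays, where the adjusted p of 0.0883 was the lowest that any of the 10 genes reached under any setting tried. Ccdc102a thus lay between the Kit+Gr1- and Gr1+ levels, like Khdc1a.

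Vat1l encodes a relative of the synaptic vesicle protein VAT1. Its Kit+Gr1- arrays spread widely, from -0.80 through a median of 0.80 to 2.48, and its Kit-Gr1- arrays measured 1.75, -0.26 and -0.63. The Gr1+ arrays measured -1.94, -3.80 and -2.80. The slide 1 array, which was also replicate 1, was the highest of its group in each of the 4 sorted fractions. It measured 2.16 for Sca1hi, 2.48 for Sca1lo, 1.75 for Kit-Gr1- and -1.94 for Gr1+ cells. The difference of Kit-Gr1- from Kit+Gr1- cells was -0.64 ± 0.70 (95% interval -2.16 to 0.87, adjusted p = 0.906). Slides 1, 2 and 3 taken singly gave -0.56, -1.18 and -1.30, a fit with slide as a block gave -0.99 ± 0.28 (adjusted p = 0.872), and leaving out the compressed arrays gave -1.27 ± 0.69. With the replicate number as a block the difference was -0.64 ± 0.40. Slide 1 and replicate 1 cannot be told apart here, and neither was tested as a cause. A second Vat1l probe repeated the fall in Gr1+ cells (-2.66 ± 0.65), and another, dim one gave -0.48 ± 0.46 there and placed Kit-Gr1- cells 0.08 below Gr1+ cells, so that the distance between those fractions is not seen with it.

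**Figure D2:**
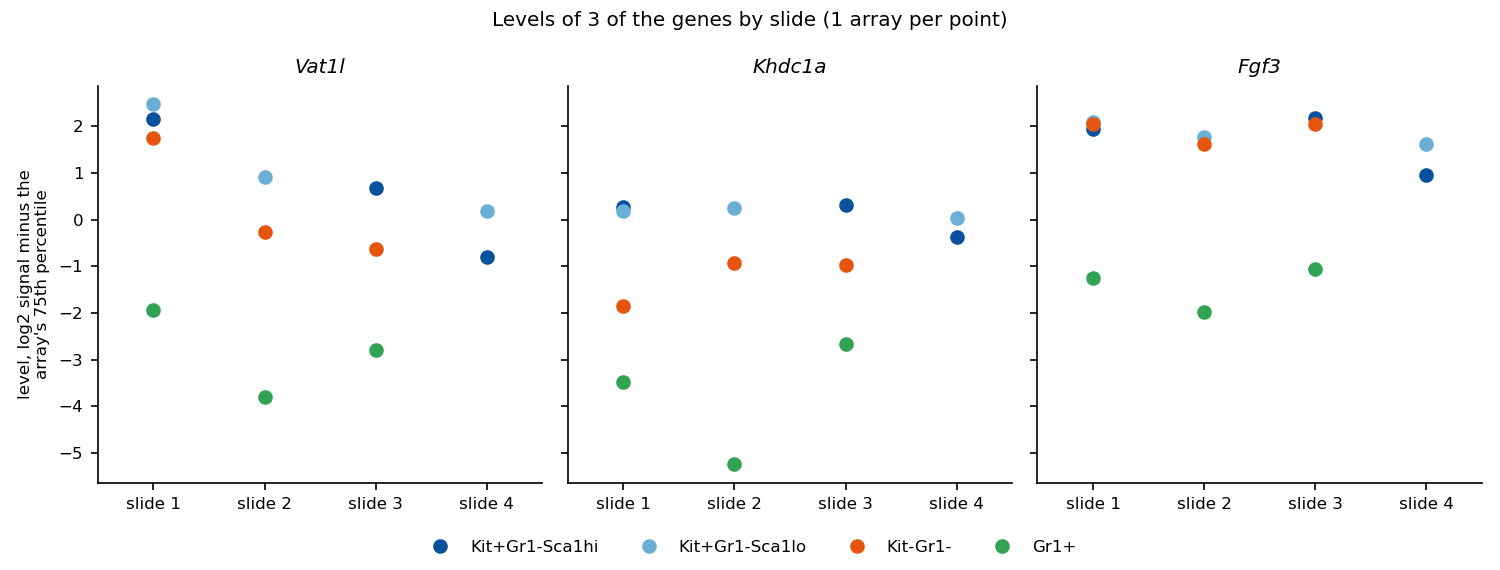
Levels of Vat1l, Khdc1a and Fgf3 (log2 processed signal minus the array's 75th percentile, vertical axis) by slide, 1 point per array, coloured by sorted fraction. The slide 1 points of Vat1l are the highest of each fraction, and the Gr1+ points are the lowest on slides 1, 2 and 3 in every panel, with no Gr1+ or Kit-Gr1- array on slide 4.

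On slides 1, 2 and 3, each of which held Gr1+, Kit-Gr1- and Kit+Gr1- arrays, Gr1+ cells were lower than Kit+Gr1- cells in 30 of 30 values (10 genes on 3 slides), and Kit-Gr1- cells were above Gr1+ cells in 30 of 30. Both counts are descriptions, since all Gr1+ and Kit+Gr1- arrays lay apart in the genes picked and the Gr1+ arrays enter both. Neither was counted over all genes. The Kit+Gr1- comparator was both fractions on slide 1, Sca1lo on slide 2 and Sca1hi on slide 3. Without the 4 compressed arrays the differences between Gr1+ and Kit+Gr1- cells ran from -4.61 for Khdc1a to -2.57 for Itm2a, and those between Kit-Gr1- and Gr1+ cells from 2.06 for Ccdc102a to 4.85 for Slc14a1.

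**Figure D3:**
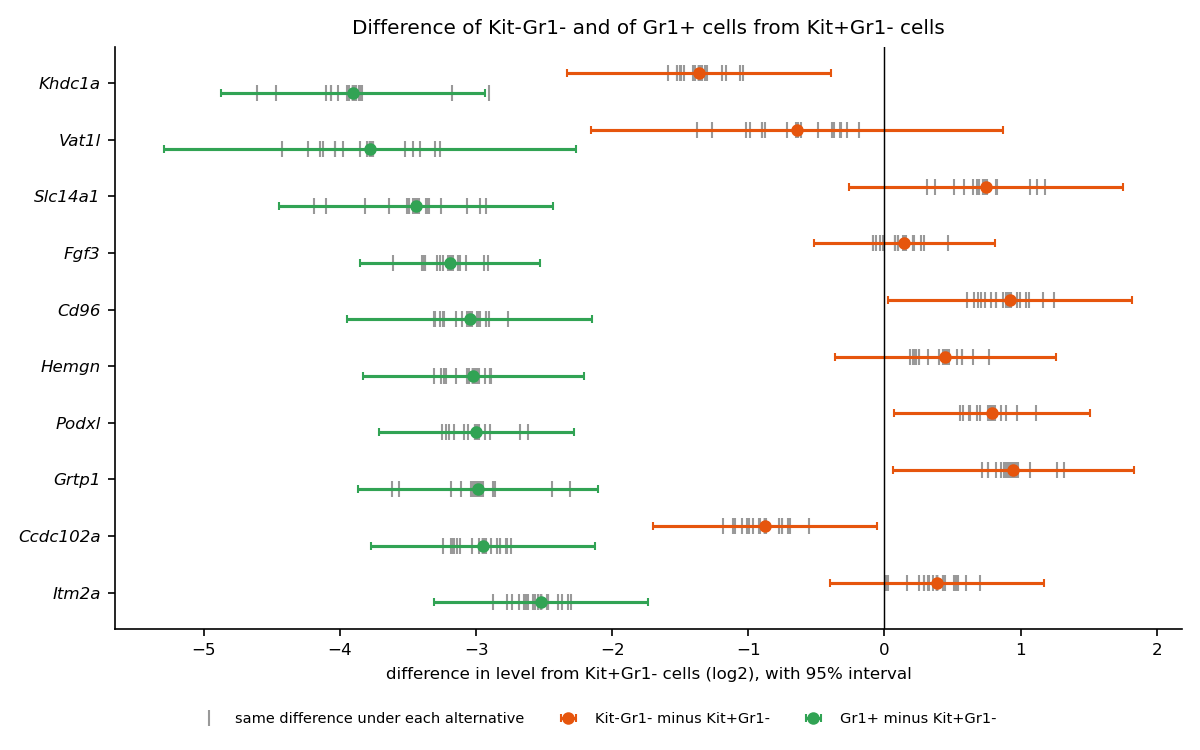
Difference in level from Kit+Gr1- cells (log2, horizontal axis) for Kit-Gr1- and Gr1+ cells, as points with 95% intervals, for each of the 10 genes, with grey ticks for the same difference under each alternative setting. The Kit-Gr1- points lie between -1.36 and 0.95 and the Gr1+ points between -3.90 and -2.52.

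The 10 genes had 16 probes in all, and 6 of them had 1 probe each. Where a gene had several, the brightest by its mean over the 14 arrays represents it. All 16 probes measured lower in Gr1+ than in Kit+Gr1- cells. The probes that did not stand for their gene gave smaller falls, from -0.48 for the dim Vat1l probe to -2.66 for the other. These falls are descriptions too. The size of the fall thus differed between probes of the same gene.

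**Figure D4:**
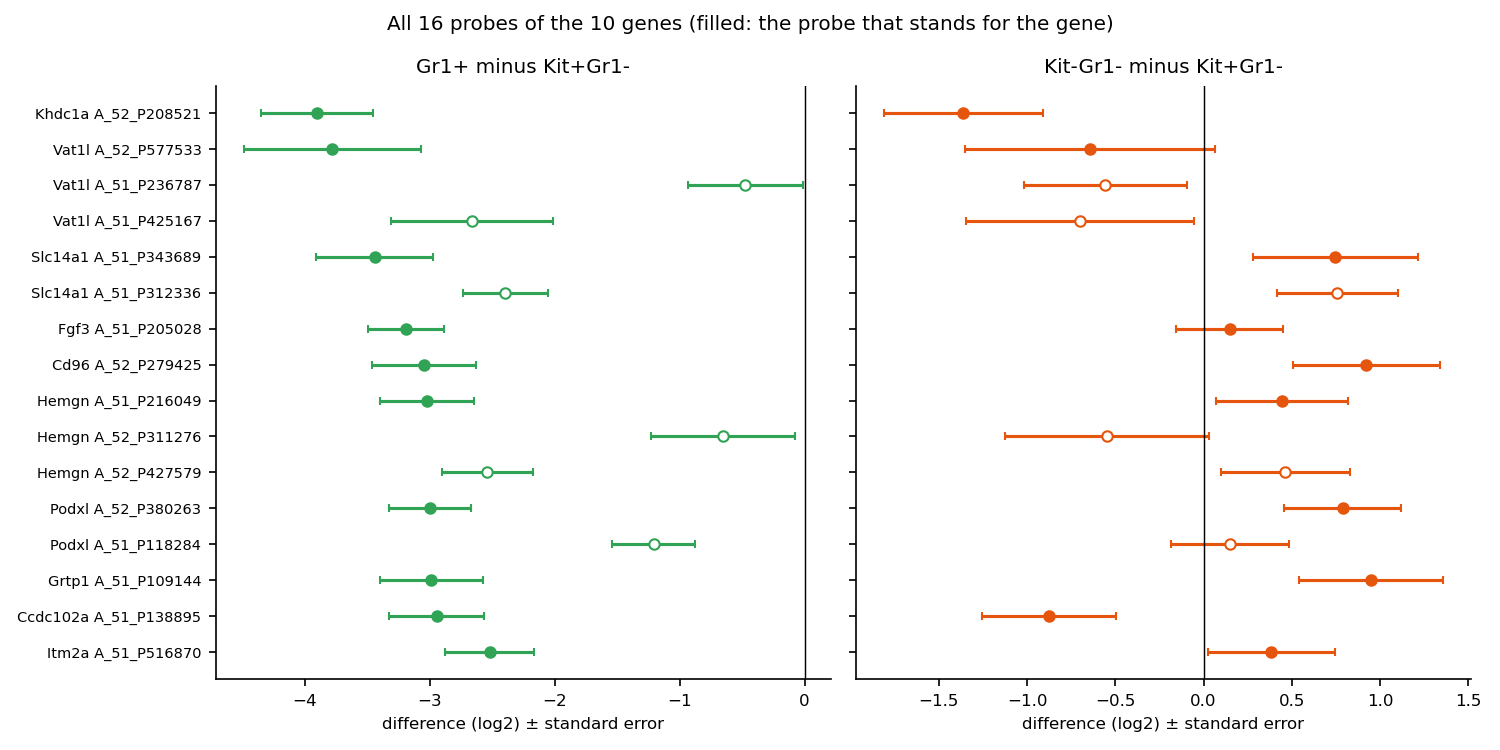
Difference in level (log2, horizontal axes) ± standard error for all 16 probes of the 10 genes, between Gr1+ and Kit+Gr1- cells on the left and between Kit-Gr1- and Kit+Gr1- cells on the right, with filled points for the probe that stands for its gene. Open points, such as those of Podxl at -1.21 and Hemgn at -0.65 on the left, lie nearer 0 than the filled point of the same gene.

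Within the Kit+Gr1- cells, the split by Sca1 was not used in choosing the genes. Of the 10, 0 were called between Sca1hi and Sca1lo cells, as were 0% of all genes, with 55 of the 32465 genes and 0 of the 10 at an unadjusted p under 0.05. Ly6a, the gene of Sca1, was itself 2.32 higher in Sca1hi cells and not called. A count of 0 therefore does not show that the fractions were alike. Slc14a1 measured 1.11, 1.46 and 0.88 on the Sca1hi arrays and 0.69, 0.21 and 0.30 on the Sca1lo arrays. These arrays did not overlap, the difference was 0.75 ± 0.54 (95% interval -0.41 to 1.91, limma adjusted p = 1), and it was 0.83 without the compressed arrays. Grtp1 measured -0.05, -0.02 and -0.32 in Sca1hi and 0.27, -0.01 and 0.11 in Sca1lo cells, barely apart, with a difference of -0.25 ± 0.47. Arrays of 3.09% of all genes were apart in 1 direction or the other. The other 8 genes overlapped and differed by -0.52 (Vat1l) to 0.44 (Itm2a). In the order of group means, Slc14a1 thus went from Kit-Gr1- (1.52 ± 0.87, SD, n = 3) through Sca1hi (1.15 ± 0.29) and Sca1lo (0.40 ± 0.26) to Gr1+ cells (-2.66 ± 1.18). The Kit-Gr1- arrays overlapped those of both Sca1hi and Sca1lo cells, with Kit-Gr1- replicate 2 at 0.65 below Sca1lo replicate 1 at 0.69.

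Unfractionated culture lay between the sorted fractions. On unfractionated replicate 2, all 10 genes were between the Gr1+ and the Kit+Gr1- means, for example Hemgn at 1.49, Cd96 at 1.25 and Fgf3 at 0.73. On replicate 1, the compressed array, 8 of the 10 were, with Grtp1 at 0.02 just above the Kit+Gr1- mean and Ccdc102a at -0.78 just below the Gr1+ mean. For Cd96 the replicates lay far apart, at -0.64 and 1.25.

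The genes around the edge of the set were alike in size. Genes were ranked if they had a symbol, were called lower in Gr1+ cells and had no overlap between Gr1+ and Kit+Gr1- arrays. Ccdc102a ranked number 9 by the size of its fall (-2.95). Phldb1, which is not in the set, ranked number 10 (-2.83), and Itm2a, the last of the set, ranked number 11 (-2.52). With the marked Itm2a spot kept, Itm2a ranked number 10 (-2.87) and Phldb1 number 11 (-2.82). Next after Itm2a came Mycn (-2.50), Gimap5 (-2.45), Abca4 (-2.38), Tmem176b (-2.33) and Thsd1 (-2.30). In Kit-Gr1- cells these 5 measured 0.04, -0.53, -0.79, -1.04 and -1.83, and Thsd1, a membrane protein with a thrombospondin repeat, was called lower there (adjusted p = 0.0447).

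The 10 genes were picked for a fall on the Gr1+ arrays, and correlations over the 12 sorted arrays, which include these, mostly restate that fall. As a description, the level of each gene correlated with the mean of the other 9 at a Pearson r of 0.848 (Khdc1a) to 0.993 (Fgf3), with 11 arrays for Itm2a. Outside the set, the 5 genes most like the mean of the 10 over these arrays were Phldb1 (r = 0.990), Dlg3 (0.989), Nrip1 (0.987), Car13 (0.984) and Nefh (0.981). Their falls in Gr1+ cells were -2.83, -2.24, -1.47, -1.91 and -1.31, and their differences in Kit-Gr1- cells ran from 0.00 (Nrip1) to 0.27 (Phldb1). These correlations describe arrays that share 4 slides and 1 cell line.

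Relatives of the 10 genes were mostly not called in Gr1+ cells, where 0.625% of all genes were called lower and 1.38% higher. A count of 0 called lower in a short list is near that share and says little about a family. Some relatives, such as Fgf5 (-6.38), Fgf16 (-6.25) and Fgf10 (-5.87), were already so low in Kit+Gr1- cells that a fall could hardly show. Of 20 other FGF ligands measured, 0 were called in either direction (-0.32 to 0.54), and of 7 FGF receptors and coreceptors 0 were called (-0.72 to 0.17). The other 3 CD34 family sialomucin genes, Cd34 among them, ran from -0.30 to -0.09 in Gr1+ cells, with 0 called. In Kit-Gr1- cells, where Podxl was 0.79 higher, Cd34 measured -1.72 ± 0.37 and was not called (adjusted p = 0.263). Of 7 other nectin-binding receptors and nectins, 1 was called: Cd226, an activating receptor that shares a ligand with Cd96, rose in Gr1+ cells by 2.01 ± 0.40 (adjusted p = 0.0171). Of 31 other TBC domain genes, 1 was called, Tbc1d8, which rose by 1.85 ± 0.41 (adjusted p = 0.0328). Itm2b and Itm2c measured 1.90 ± 0.74 and 0.44 ± 0.41, the second urea transporter gene Slc14a2 -0.11, and Vat1 0.64 ± 0.49, none of them called. Of 4 measured relatives of Khdc1a, 0 were called, and the highest was Khdc3 at 0.78 ± 0.20.

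Slc14a1 belongs to the red cell surface genes, of which 17 others were measured. In Kit-Gr1- cells 3 of these rose: Aqp1, a water channel, by 4.73 ± 0.48 (adjusted p = 0.00321), Kel, the Kell antigen, by 3.48 ± 0.32 (adjusted p = 0.00249), and Art4, the Dombrock antigen, by 3.13 ± 0.41 (adjusted p = 0.00828). Their median was 0.94 there. In Gr1+ cells 1 of the 17, Kel, fell by 1.92 ± 0.32 (adjusted p = 0.00767), with a median of -0.20 over the list. Slc14a1, at 0.75 in Kit-Gr1- and -3.44 in Gr1+ cells, stood beside these values without a test between genes.

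Markers of blood lineages moved with the fractions. Summed over 10 erythroid markers, the level (linear signal relative to the array's 75th percentile) was 105 to 271 on the Kit+Gr1- arrays, 311 to 404 in Kit-Gr1- and 38.8 to 104 in Gr1+ cells, and 5 of the 10 were called higher in Kit-Gr1- cells. The globin gene Hbb-bt, not called in either fraction, made up 86.8% to 98.7% of this sum. Without it the sums were 2.77 to 5.99, 26.1 to 48.2 and 3.07 to 4.75, and the median difference of the list in Gr1+ cells was -0.04. Summed over 12 neutrophil granule markers it was 103 to 364, 66.7 to 252 and 1493 to 2102, and 8 of the 12 rose in Gr1+ cells. Eosinophil markers (8 measured) summed to 1.43 to 4.19, 1.26 to 4.01 and 110 to 288, with 6 higher in Gr1+ cells. Prg2, 1 of these 6, made up 66.95% to 73.36% of the eosinophil sum in Gr1+ cells. Without it the sums were 1.281 to 3.516, 1.127 to 1.772 and 30.25 to 82.93. Mast cell and basophil markers (10) summed to 71.7 to 195, 138 to 328 and 250 to 537, with 2 called higher in Gr1+ cells. Megakaryocyte markers (9) summed to 19.1 to 46.2, 63.6 to 122 and 23.8 to 41.6. Of these 9, 1 was called higher in Kit-Gr1- cells, and 1 higher and 2 lower in Gr1+ cells. Macrophage markers (7) summed to 3.04 to 4.43, 2.89 to 5.11 and 23.9 to 34.4, with 2 called higher in Gr1+ cells. Adgre1, 1 of these 2, made up 84.1% to 87.2% of the macrophage sum in Gr1+ cells. Without it the sums were 1.3 to 3.382, 1.557 to 2.082 and 3.799 to 5.05, and the median difference of the list in Gr1+ cells was 0.10. Among the 7 macrophage markers, 1 was well above background on no Kit-Gr1- array and 1 on no Sca1lo array. Because Cd96 and Itm2a are also known from lymphocytes, 12 lymphoid markers were summed as well, to 12.4 to 17.2, 8.98 to 12.8 and 25.3 to 35.8, with 0 of the 12 called in Kit-Gr1- or Gr1+ cells. Of these, 1 was not well above background on any Kit-Gr1- array. Nkg7, not called, made up 58.6% to 92.0% of the lymphoid sum, which without it was 2.02 to 5.19, 2.21 to 3.24 and 2.87 to 3.90, and the median difference of the list in Gr1+ cells was -0.06. The part of these cell types in the levels of the 10 genes was not tested.

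Promoters are shown because the 10 genes fell together in Gr1+ cells. RefSeq promoters on GRCm38.p6, from 250 bases before to 50 after the gene's start, were at hand for 7 of the 10, and Khdc1a, Slc14a1 and Podxl were not among them. Words of motifs bound by blood transcription factors were searched on both strands. The GATA words AGATAA or TGATAA or AGATAG or TGATAG occurred in 3 of the 7 (Fgf3, Hemgn and Itm2a), and in 30.22% of 27025 promoters of the same length. The RUNX word TGTGGT occurred in 2 (Cd96 and Hemgn) against 16.92%, and the ETS words AGGAAG or CGGAAG in 3 (Fgf3, Grtp1 and Itm2a) against 46.4%. The E-box CAGCTG occurred in 1 (Hemgn) against 16.11% and TATAAA in 2 (Cd96 and Hemgn) against 14.16%. The MYB word AACTGNC, the CCAAT word and the C/EBP words TTGCGCAA or TTGCAAT or TTGTGCAA occurred in 0 of the 7, against 12.86%, 37.92% and 3.40%. These counts describe letters in a window and no binding was measured. The 3 promoters with a GATA word are printed 5′ to 3′ on the gene's strand, with GATA, RUNX and ETS words in capitals, for Hemgn (chr4:46404134-46404433, minus strand), Fgf3 (chr7:144838362-144838661, plus strand) and Itm2a (chrX:107403311-107403610, minus strand). In Hemgn both GATA words and the RUNX word lie near the 3′ end of the window. In Itm2a the ETS words overlap.
Hemgn: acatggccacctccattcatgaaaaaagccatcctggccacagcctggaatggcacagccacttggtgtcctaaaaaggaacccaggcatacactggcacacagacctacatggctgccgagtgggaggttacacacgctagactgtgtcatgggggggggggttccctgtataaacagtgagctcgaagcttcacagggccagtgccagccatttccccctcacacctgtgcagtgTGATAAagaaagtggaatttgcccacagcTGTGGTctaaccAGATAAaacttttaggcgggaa
Fgf3: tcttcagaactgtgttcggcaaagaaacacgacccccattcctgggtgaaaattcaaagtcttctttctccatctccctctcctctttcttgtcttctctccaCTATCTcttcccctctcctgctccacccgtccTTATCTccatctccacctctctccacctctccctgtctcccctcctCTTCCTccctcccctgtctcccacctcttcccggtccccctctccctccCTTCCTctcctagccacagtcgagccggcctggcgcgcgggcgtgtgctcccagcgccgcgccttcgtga
Itm2a: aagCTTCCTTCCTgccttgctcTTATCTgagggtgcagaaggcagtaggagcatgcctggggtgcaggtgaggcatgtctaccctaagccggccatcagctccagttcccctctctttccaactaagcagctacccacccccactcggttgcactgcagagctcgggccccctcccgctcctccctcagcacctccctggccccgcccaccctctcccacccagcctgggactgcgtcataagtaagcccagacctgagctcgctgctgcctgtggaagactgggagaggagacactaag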

How the data were processed

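RNA from 14 FDCPmix samples in 5 groups, as the labels give them, was measured on single-colour (Cy3) arrays lying on 4 slides by the barcodes in the headers. Agilent Feature Extraction 10.1.1.1 read the scans, per the file headers, and the intensity of each spot was deposited as a processed signal that the software had background-subtracted and detrended within the array. The deposited series matrix holds log2 values of this processed signal, not scaled between arrays. The annotation of the array names build mm8, and no probe coordinates are given.

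From the deposited intensities, control spots and spots that the software marked as outliers (69 to 493 per array) were left out, spots of a probe were averaged, and log2 signals were scaled to the 75th percentile of each array. RefSeq accessions gave a symbol to 23374 of 41174 probes. Probes well above background on at least 3 arrays were kept, and the probe with the highest mean stood for its gene, which left 32465 genes. Of these, 16462 had a symbol, and an accession without a symbol counted as a gene of its own. All 10 genes described passed. The 14 arrays were fitted together with limma 3.58.1 under R 4.3.3 (lmFit and trended eBayes, 5 groups, 9 residual degrees of freedom, two-sided tests, Benjamini-Hochberg adjustment over all genes). The procedure was tested on simulated data. Named besides the 10 genes were the next 5 by fall in Gr1+ cells, the 5 most alike across sorted arrays, and from each gene list up to 3 called genes or up to 2 as values where none was called. Myct1, Sox4, the Gr1+ value of Kit and the difference of Ly6a between Sca1hi and Sca1lo cells were added after their values were seen. The 10 genes, the gene lists and the tests were chosen with earlier results of these data known. Same-numbered arrays of the Sca1hi, Sca1lo and Gr1+ groups deviated together (correlation over 0.1 in 9 of 9 pairs, 0.62 to 0.87). Replicate 3 of each was a compressed array. Differently numbered arrays among replicates 1 and 2 of these groups also exceeded 0.1, at 0.31 to 0.66. These correlations therefore cannot show whether the numbers pair the samples, and the replicate number was a block in an alternative only. With Kit-Gr1- arrays 5 of 9 same-numbered pairs exceeded 0.1 (-0.23 to 0.21), and the numbers were not taken to pair them. Alternatives covered scaling, normexp background correction of the median signal (offset 50), the deposited log2 values, filters, slide and replicate blocks, other probes and arrays left out. Keeping marked spots was an alternative added after seeing the data. Figures were drawn with Python 3.11.15 and matplotlib 3.10.9.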

Additional observations from a re-analysis of the deposited data

How the results depend on the processing

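None of the 10 genes was called between Kit-Gr1- and Kit+Gr1- cells or between Sca1hi and Sca1lo cells under any of the 28 alternatives that apply. Of 1100 values of single genes under alternatives, 1055 kept their direction and side of the threshold, 16 moved by more than 1 SD and 29 changed sign, most of them small differences between Sca1hi and Sca1lo cells; the cause was not tested.

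The number of genes called between Kit-Gr1- and Kit+Gr1- cells (22) was 13 with quantile normalization, 13 with the deposited log2 values, 108 without the unfractionated arrays, 142 without the 4 compressed arrays and 0 against Sca1lo alone. Leaving out 1 array gave 0 (Kit-Gr1- replicate 1 or 3) to 111 (unfractionated replicate 1). Between Gr1+ and Kit+Gr1- cells (651) it was 202 with array medians, 1354 without the unfractionated arrays, 2012 without the 4 compressed arrays, 325 against Sca1hi alone and 421 against Sca1lo alone. Leaving out 1 array gave 114 (Gr1+ replicate 2) to 1359 (unfractionated replicate 1).

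For Kit-Gr1- against Kit+Gr1- cells, Fgf3 changed sign to -0.013 with quantile normalization, -0.085 with the deposited values, -0.061 with slide as a block and -0.086 without the compressed arrays (-0.036 to 0.29 with 1 array left out), and Hemgn to -0.55 with its dim probe. The 16 values that moved all involve the Gr1+ arrays, among them Khdc1a (-4.61 without the compressed arrays, -2.91 under normexp), Grtp1 (-2.31 under normexp) and Slc14a1 (-4.19 without the compressed arrays) for the fall in Gr1+ cells, and other probes of Podxl, Vat1l, Slc14a1 and Hemgn. For Kit-Gr1- against Gr1+ cells, Khdc1a and Grtp1 moved to 1.71 and 3.16 under normexp, and Vat1l changed to -0.082 with its dim probe. For Sca1hi against Sca1lo cells, Khdc1a changed to 0.10 (deposited values) and 0.078 (without compressed arrays), Fgf3 to 0.046 and 0.12, and Podxl to 0.17 and 0.32 under the same settings, with Podxl at 0.030 under normexp and 0.0064 with its other probe. Cd96 changed to -0.026 with array medians and -0.19 with slide as a block, Hemgn to 0.079 without the compressed arrays and 0.19 with another probe, and Vat1l to 0.25 with its dim probe. With 1 array left out, these differences ran from -0.21 to 0.14 for Khdc1a, -1.26 to 0.22 for Vat1l, -0.39 to 0.22 for Fgf3, -0.17 to 0.54 for Cd96, -0.50 to 0.17 for Hemgn and -0.22 to 0.31 for Podxl.

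With the replicate number as a block, 27 genes were called between Kit-Gr1- and Kit+Gr1- cells, 793 between Gr1+ and Kit+Gr1- cells and 0 between Sca1hi and Sca1lo cells, with 0 of the 10 genes in the first and last, so the block changed no call on them. Itm2a had no value under normexp, which used probes with a value on all arrays.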
